A study of Mus musculus with 5 samples.

Results

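The contacts of 3 genes, Paxip1, Htr5a and Insig1, were followed across the captured stretch of mouse chromosome 5 around Sonic hedgehog (Shh). The 3 were chosen by name from the 23 protein-coding genes that the annotation places in the map. Each gene was used as a viewpoint of its own, as the 5 kb bins of the gene plus 1 bin on either side, and its partners were all bins 20 kb or more away. The label speaks of contacts with distal genes. Over all of the map right of Insig1, a preference for gene bins over other bins was measured for Paxip1 and Insig1 in every map. For both it was missing from some stretches in some maps. For Htr5a it was found within the Shh domain in every map, but over all of the map right of Insig1 in intraTAD3 alone. Within the domain it came from Rnf32 and Lmbr1, as Htr5a met Shh less than the gene desert in every map.

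The study compared chromatin contacts in limb buds of E10.5 mouse embryos by capture Hi-C, a method that joins DNA ends lying close together in fixed nuclei, then enriches and sequences the joined pieces of a chosen stretch. The genotypes were homozygous intraTAD2, intraTAD3, intraTAD2-i4CTCF, intraTAD2-2xBorCTCF and intraTAD2-1xBorCTCF, with 1 library each. The last 3 are written i4CTCF, 2xBorCTCF and 1xBorCTCF here, and their names carry that of the intraTAD2 allele. Embryos of intraTAD2, intraTAD3 and i4CTCF came from mating. Embryos of 2xBorCTCF and 1xBorCTCF were made from stem cells by tetraploid aggregation, so in those maps an effect of the allele cannot be told apart from one of the embryo source. The sources used here do not say what each allele changed. The wild-type map was deposited for the series as a whole and belongs to no sample, so genotype and library origin cannot be told apart in any ratio to it.

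Paxip1 encodes PTIP, a protein with BRCT domains that is a subunit of the MLL3 and MLL4 histone H3K4 methyltransferase complexes and takes part in the DNA damage response. Htr5a encodes a G-protein-coupled serotonin receptor known mostly from the brain. Insig1 encodes a protein of the endoplasmic reticulum that holds back the sterol sensor SCAP and promotes the breakdown of HMG-CoA reductase, as part of the feedback on cholesterol synthesis. Chromatin is folded into topologically associating domains (TADs), within which loci meet more often than across their borders, and active genes are also known to meet each other over longer distances.

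The 6 maps held 1121373 (2xBorCTCF) to 2942790 (intraTAD2) whole contacts, recovered from the balanced signal. Of these, Paxip1 took part in 30085 (i4CTCF) to 81669 (intraTAD2) at 20 kb or more, Htr5a in 13515 (2xBorCTCF) to 42196 (intraTAD2) and Insig1 in 11348 (2xBorCTCF) to 31008 (intraTAD2). A contact value below is the mean balanced value of a set of bin pairs divided by the mean of all pairs at the same distance in the same map, so that 1 is the average for the distance. With 1 library per genotype no test between genotypes was possible and no spread between embryos is known. Every 95% interval, given in parentheses, covers counting error only, without that of the average at each distance.

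Paxip1 (gene ID 55982) lies at chr5:27740080-27791672, Htr5a (15563) at chr5:27841716-27855086 and Insig1 (231070) at chr5:28071412-28078662 in GRCm38. The windows of 65, 30 and 20 kb hold the whole genes, with exons, introns and UTRs together. Shh begins at 28456840 on the map, and the segment from its window to the end of Lmbr1, whose introns hold the limb enhancer of Shh, spans 935 kb and is mostly gene desert. Paxip1 lies 665.2 kb, Htr5a 601.8 kb and Insig1 378.2 kb from Shh. Paxip1 and Htr5a are 50.044 kb apart, Htr5a and Insig1 216.3 kb, and Paxip1 and Insig1 279.7 kb.

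The promoters of Paxip1 and Insig1 are shown because each had the contact profile most like the other's in wild type. Sequences are from RefSeq (GRCm38.p6) and were trimmed to bases outside the annotated gene. Capitals mark GGGCGG, the GC box bound by Sp1-family factors, and CCCTC, the repeat that CTCF is named for, on either strand. For Paxip1 (chr5:27791673-27791800, minus strand, 128 bases) the last capitals begin a match that runs on past the printed bases. For Insig1 (chr5:28071162-28071411, plus strand, 250 bases) the first capitals hold a GC box and the CCCTC match, which share 3 bases.
Paxip1: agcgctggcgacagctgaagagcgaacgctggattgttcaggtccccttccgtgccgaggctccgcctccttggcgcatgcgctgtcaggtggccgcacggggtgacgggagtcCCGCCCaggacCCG
Insig1: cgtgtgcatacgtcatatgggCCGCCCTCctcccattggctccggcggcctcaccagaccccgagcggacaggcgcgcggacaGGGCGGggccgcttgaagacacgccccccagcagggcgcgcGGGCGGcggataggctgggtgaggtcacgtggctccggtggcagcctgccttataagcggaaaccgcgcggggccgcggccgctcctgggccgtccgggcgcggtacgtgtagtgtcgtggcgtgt
Of Htr5a 19 bases lay outside the gene and none are printed. Over the full 250 bases before each listed start, the promoters of Paxip1, Htr5a and Insig1 held 2, 0 and 3 GC boxes and 1 CCCTC each. They held 22, 13 and 34 CG dinucleotides. Of 32851 promoters of the same length, 32.7% held a GC box, 60.5% held CCCTC, and the median number of CG dinucleotides was 6. As many CG dinucleotides as in Paxip1 or more were found in 14.8% of them, against 31.5% for Htr5a and 3.53% for Insig1. These matches describe letters and not binding.

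Paxip1 and Insig1 met more often than is average at their distance, in every map. Their contact was 1.81 for wild type, 1.89 for intraTAD2, 1.88 for intraTAD3, 1.9601 for i4CTCF, 1.85 for 2xBorCTCF and 1.93 for 1xBorCTCF. The wild-type interval was 1.69 to 1.93, and 4.7% of 489 window pairs of the same sizes and distance had as much contact or more. The 6 values lay close together, and none of the log2 ratios to wild type, from 0.037 in 2xBorCTCF to 0.12 in i4CTCF, had an interval that left out 0. With the gene bins alone, without the flanking bins, all 5 mutant maps were above wild type beyond counting error, with log2 ratios of 0.24 for intraTAD2, 0.27 for intraTAD3, 0.44 for i4CTCF, 0.25 for 2xBorCTCF and 0.31 for 1xBorCTCF.

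Htr5a and Insig1 also met more often than is average at their distance. Their contact was 1.58 for wild type, 1.68 for intraTAD2, 1.64 for intraTAD3, 1.53 for i4CTCF, 1.40 for 2xBorCTCF and 1.35 for 1xBorCTCF. The wild-type interval was 1.44 to 1.74, and both BorCTCF maps had lower values than the other 4. Against wild type the log2 ratio was -0.23 (-0.43 to -0.039) in 1xBorCTCF and -0.18 (-0.41 to 0.042) in 2xBorCTCF. Against intraTAD2 it was -0.32 (-0.49 to -0.15) and -0.27 (-0.47 to -0.063). With the gene bins alone, the ratios to wild type were -0.25 in 1xBorCTCF and -0.0077 in 2xBorCTCF, and neither interval left out 0.

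The neighbours Paxip1 and Htr5a met less often than is average at their distance. Their contact was 0.783 for wild type, 0.772 for intraTAD2, 0.783 for intraTAD3, 0.819 for i4CTCF, 0.756 for 2xBorCTCF and 0.791 for 1xBorCTCF. In wild type the interval was 0.746 to 0.823, and 86.3% of 533 such window pairs had as much contact or more. No ratio to wild type left out 0, but without balancing it was below 0 beyond counting error in intraTAD3 (-0.15) and 2xBorCTCF (-0.15). Of the 3 pairs, the farthest apart had the highest value and the closest had the lowest in every map, and the intervals of Paxip1 with Htr5a did not overlap those of the other pairs in any map.

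**Figure D1:**
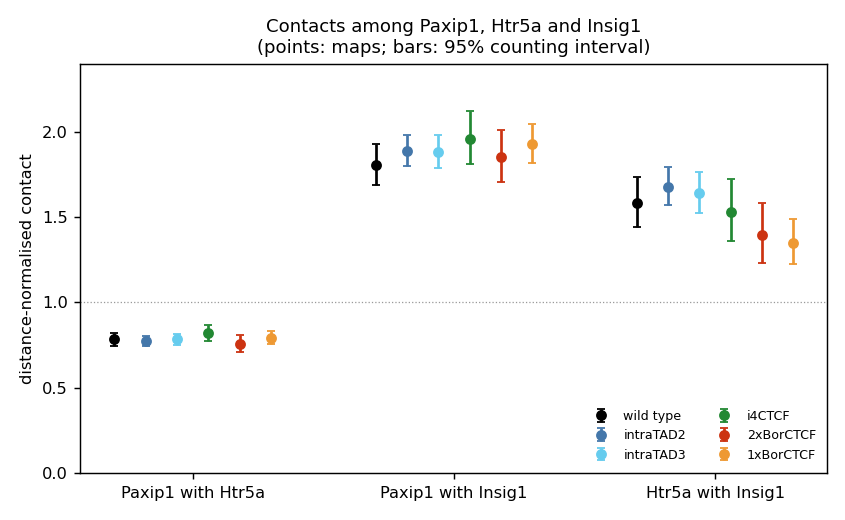
Distance-normalised contact (y axis, 1 is the average at the distance) of the 3 gene pairs in the 6 maps. Points are maps and bars are 95% counting intervals. Paxip1 with Htr5a lies below 1 in every map, Paxip1 with Insig1 between 1.81 and 1.9601, and Htr5a with Insig1 is lowest in 2xBorCTCF (1.40) and 1xBorCTCF (1.35).

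An insulation minimum, a point that contacts within 100 kb on either side cross less often than nearby points, lay between Paxip1 and Htr5a or in the window of Htr5a in every map. The bin starts were 27840001 for wild type, 27810001 for intraTAD2, 27795001 for intraTAD3, 27805001 for i4CTCF, 27840001 for 2xBorCTCF and 27830001 for 1xBorCTCF. The insulation there was -0.22 for wild type, -0.22 for intraTAD2, -0.20 for intraTAD3, -0.16 for i4CTCF, -0.15 for 2xBorCTCF and -0.15 for 1xBorCTCF on a log2 scale relative to the mean of the map. Another minimum stood at 28100001, right of Insig1, in all 6 maps, with -0.35 for wild type, -0.26 for intraTAD2, -0.34 for intraTAD3, -0.39 for i4CTCF, -0.27 for 2xBorCTCF and -0.31 for 1xBorCTCF. Both were shallow beside the border next to Shh, which was at -1.03 in wild type. Insig1 and at least most of Htr5a lay between this pair of minima, and Paxip1 lay outside it.

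The profiles along the map showed where each gene met its partners. In wild type the contact of Paxip1 averaged 1.49 between Insig1 and Shh, 0.849 from Shh to the end of Lmbr1 and 1.31 right of Lmbr1. Insig1 gave 0.975, 0.704 and 1.16 over the same segments, and Htr5a gave 1.23, 1.05 and 0.976. Paxip1 and Insig1 were thus lower in the Shh segment than in the segments on either side of it, and Htr5a was not. Left of Paxip1 the values were 0.707 for Paxip1, 0.850 for Insig1 and 0.814 for Htr5a, the lowest of the 5 segments for Paxip1 and Htr5a. From Paxip1 to Insig1 they were 0.992, 1.32 and 1.10.

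**Figure D2:**
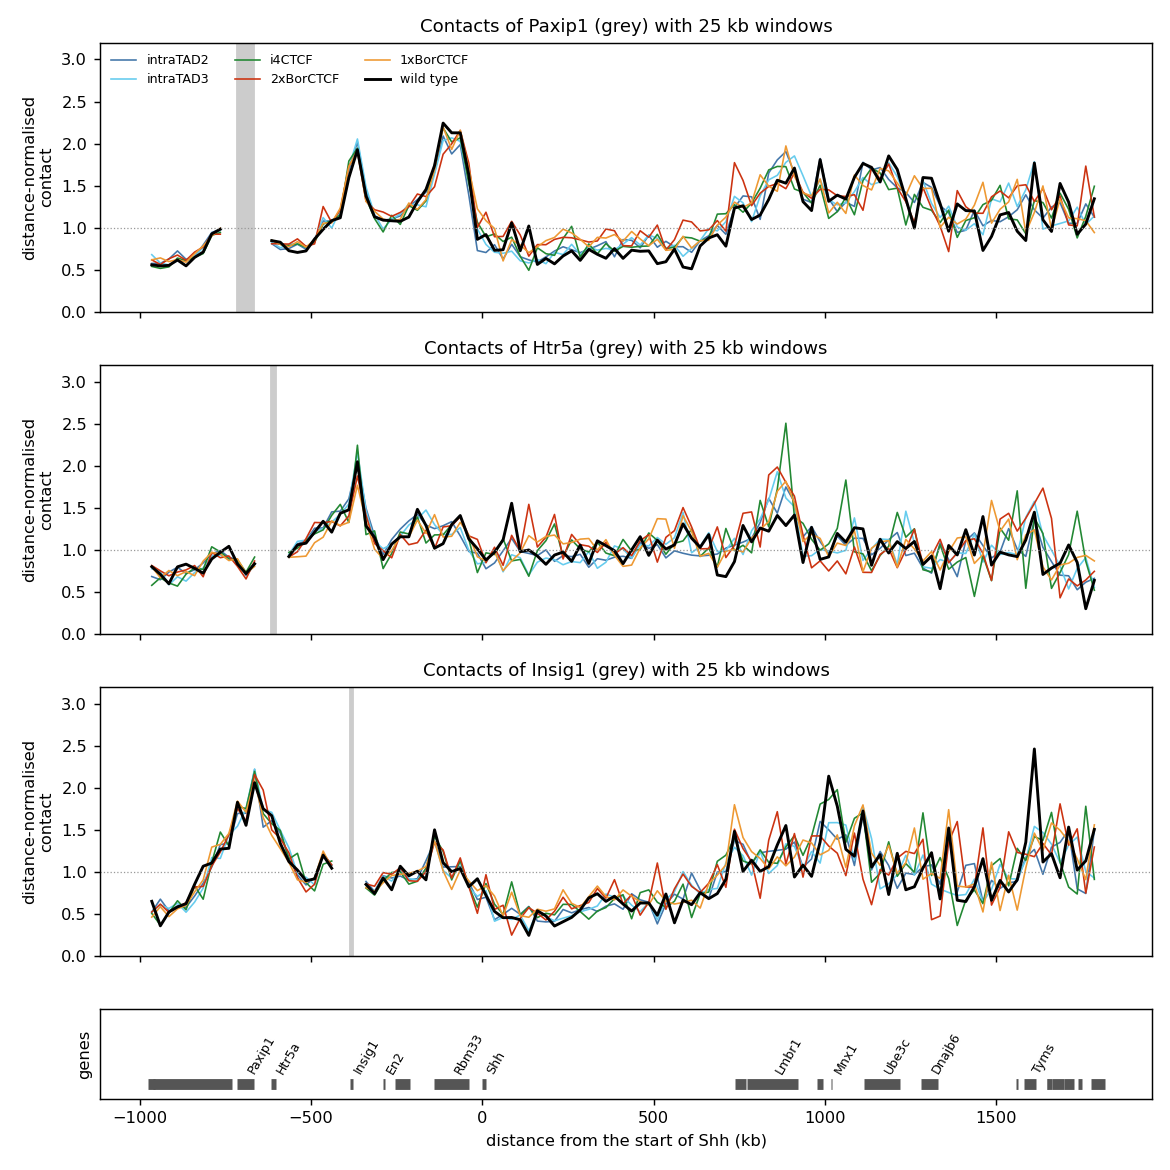
Distance-normalised contact of Paxip1, Htr5a and Insig1 (grey bars) with 25 kb windows, by distance from the start of Shh in kb, in the 6 maps (lines), with protein-coding genes below. In wild type, Paxip1 (0.849) and Insig1 (0.704) average below 1 from Shh to the end of Lmbr1, and Htr5a averages 1.05.

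In wild type the gene that Paxip1 met most was Rbm33, which lies next to Shh, on the same side of the domain border as Paxip1. The contact was 2.04 for wild type, 1.84 for intraTAD2, 1.91 for intraTAD3, 1.97 for i4CTCF, 1.88 for 2xBorCTCF and 1.97 for 1xBorCTCF. Wild type, with an interval of 1.97 to 2.12, was the highest, as the choice of a wild-type maximum would also give. In intraTAD2 the contact of Paxip1 with Insig1, 1.89, was above that with Rbm33. The 3 windows of 25 kb with the most wild-type contact for Paxip1 all lay in Rbm33, with 2.24, 2.23 and 2.09. Beyond the whole Shh segment, Paxip1 met Nom1, a nucleolar protein gene, at 1.72 (1.53 to 1.94), Ube3c, which encodes a ubiquitin ligase, at 1.69 (1.56 to 1.83) and Dnajb6, which encodes a co-chaperone, at 1.55 (1.37 to 1.74). These 3 genes lie 1643.0 to 1944.2 kb from Paxip1, and 1.4%, 1.18% and 0.68% of same-sized windows at the same distance reached their wild-type values. Mnx1, a motor neuron homeobox gene between Nom1 and Ube3c, was at 1.24 (1.02 to 1.5001). Pairs with Paxip1 make up 5.24% of all bin pairs at 1500 kb and 8.39% at 2000 kb, so they enter their own average.

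On the side towards Shh, Paxip1 met Cnpy1 at 1.11 (1.04 to 1.17) and En2, a homeobox gene of the midbrain and hindbrain, at 1.07 (0.978 to 1.17). In the Shh segment it met Shh at 0.797 (0.693 to 0.916), Rnf32 at 1.22 (1.10 to 1.34) and Lmbr1 at 1.36 (1.27 to 1.46). Of the other genes 100 kb or more away, Selenoi, 1.38 (1.09 to 1.76), and Tyms, 1.36 (0.972 to 1.90), were the highest, and Speer4b, 0.529 (0.429 to 0.654), and Il6, 0.838 (0.579 to 1.21), the lowest.

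Insig1 shared some of these partners. Its highest gene was Mnx1 at 2.15 (1.76 to 2.64) in wild type on 97 contacts, 1395.2 kb away, which 1.45% of same-sized windows reached. Tyms, the thymidylate synthase gene, followed at 1.97 (1.29 to 3.01) on 33 contacts, and Selenoi was at 1.45 (1.03 to 2.04). Nom1 was at 1.39, Rnf32 at 1.198, Ube3c at 1.196, Lmbr1 at 1.14 and Rbm33 at 1.10, all with intervals above 1. Cnpy1 at 0.987, En2 at 0.941 and Dnajb6 at 1.05 had intervals that held 1. Shh was at 0.705 (0.578 to 0.861), and Dpp6 (0.850) and Speer4b (0.431) were the lowest of the unlisted genes. The 3 windows of 25 kb with the most contact lay in Tyms with 2.81 on 13 contacts, in Paxip1 with 2.24 on 437, and in Mnx1 with 2.14 on 124.

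The contact of Insig1 with Mnx1 was higher in wild type than in every mutant map, as the choice of a wild-type maximum would also give. It was 1.59 for intraTAD2, 1.89 for intraTAD3, 2.04 for i4CTCF, 1.58 for 2xBorCTCF and 1.38 for 1xBorCTCF. The log2 ratio to wild type left out 0 in intraTAD2 with -0.44 (-0.85 to -0.030) and in 1xBorCTCF with -0.64 (-1.09 to -0.19). Those mutant values rest on 110 and 74 contacts.

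Htr5a had few gene partners above average. Besides Insig1, the genes with intervals above 1 in wild type were Lmbr1 at 1.26 (1.14 to 1.38), Rbm33 at 1.17 (1.09 to 1.2498) and Cnpy1 at 1.14 (1.06 to 1.23). Tyms (1.30) and Hadhb (1.01) were the highest of the unlisted genes with 10 or more contacts, and 3110082J24Rik (0.633) and Garem2 (0.701) the lowest, all on 34 contacts or fewer. Shh was at 0.842, Rnf32 at 1.09, Nom1 at 0.870, Mnx1 at 0.991, Ube3c at 0.988 and Dnajb6 at 0.822, all with intervals that held 1. En2 was below 1 at 0.860 (0.757 to 0.977). The strongest 25 kb window of Htr5a was chr5:28080001-28105000, which overlaps the last bin of the Insig1 window, at 2.05 (1.91 to 2.196), and holds no gene.

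The 3 genes were also set apart when all partner bins were split by whether they hold a protein-coding gene. This split was not recomputed on another scale or for other windows of the flank. Whether other loci share the preference is thus not known. Over the map right of Insig1, at 100 kb or more, Paxip1 met gene bins at 1.48 and other bins at 0.966 in wild type, a ratio of 1.54. For Insig1 the values were 1.203 and 0.791, a ratio of 1.52. For Htr5a they were 1.03 and 1.06, a ratio of 0.976 with an interval that held 1. On the log2 scale the preference for gene bins was greater by 0.65 (0.54 to 0.77) for Paxip1 and by 0.64 (0.48 to 0.7997) for Insig1 than for Htr5a. Paxip1 and Insig1 differed from each other by 0.014 (-0.13 to 0.15). Gene bins were 150 for Paxip1 and Htr5a and 148 for Insig1, and because they come in runs of single genes they are not independent. The Shh segment, where Paxip1 and Insig1 averaged below 1, held 38 of these gene bins but 142 of the other bins. Other bins were 278 in all for Paxip1 and Htr5a and 261 for Insig1. The ratios over the whole stretch thus also carry differences between segments.

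Paxip1 and Insig1 were above Htr5a in each mutant map as well. The gene-bin ratio of Paxip1 was 1.46 for intraTAD2, 1.44 for intraTAD3, 1.39 for i4CTCF, 1.34 for 2xBorCTCF and 1.33 for 1xBorCTCF. For Insig1 it was 1.40, 1.44, 1.37, 1.37 and 1.37, and for Htr5a 1.03, 1.07, 1.02, 1.03 and 1.01, in that order. The interval of Htr5a held 1 in each of them but intraTAD3. In every map the difference between Paxip1 and Htr5a, from 0.38 to 0.65 on the log2 scale, and that between Insig1 and Htr5a, from 0.41 to 0.64, had intervals above 0. The ratios were highest in the Shh segment, where the gene bins are those of Shh, Rnf32 and Lmbr1, with 1.81 for Paxip1, 1.91 for Insig1 and 1.203 for Htr5a in wild type. Most of these bins lie at the far end of the segment. In wild type Htr5a met the Shh window at 0.842, the desert at 1.01 and Rnf32 with Lmbr1 at 1.22. In every map it met Shh less than the desert. Right of Lmbr1 the wild-type ratios of Paxip1, Insig1 and Htr5a were 1.24, 1.23 and 0.862, and between Insig1 and Shh 1.32, 1.12 and 0.896. Between Insig1 and Shh the interval of Insig1 held 1 in wild type and in 1xBorCTCF, where the ratio was 1.00. Right of Lmbr1 the ratio of Paxip1 was 1.08, 1.10 and 1.02 in i4CTCF, 2xBorCTCF and 1xBorCTCF, with intervals that held 1, and that of Insig1 was 1.08, 1.05 and 1.06 in intraTAD2, i4CTCF and 2xBorCTCF, also with intervals that held 1.

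**Figure D3:**
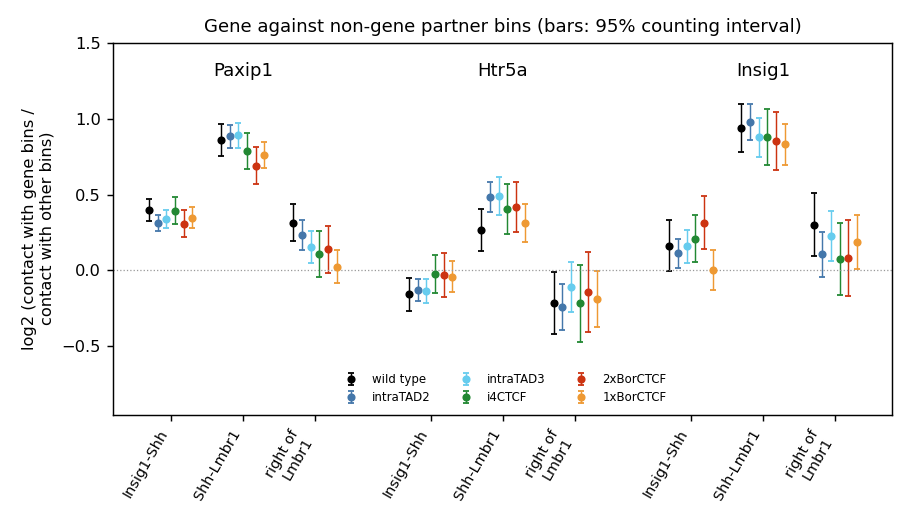
Log2 ratio of the contact with bins that hold a protein-coding gene to the contact with other bins (y axis), for each gene and 3 stretches of the map, in the 6 maps. Points are maps and bars 95% counting intervals. From Shh to Lmbr1 all values are above 0, with Paxip1 and Insig1 above Htr5a in each map, and elsewhere those of Htr5a are below 0.

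Likeness of profiles was measured as the Spearman correlation over 50 kb blocks at 100 kb or more from both genes within 1 map. The values share a library, so this is a description without a test. In wild type the profile most like that of Paxip1 was Insig1 (0.78 over 45 blocks), followed by Rbm33 (0.75) and En2 (0.69). The profile most like that of Insig1 was Paxip1, followed by Rbm33 (0.75) and En2 (0.73). The genes most like Htr5a were Paxip1 (0.42), Lmbr1 (0.31) and Cnpy1 (0.30), and Htr5a and Insig1 gave 0.17. Across the mutant maps Paxip1 with Insig1 ranged from 0.70 (1xBorCTCF) to 0.82 (intraTAD2), Paxip1 with Htr5a from 0.26 (2xBorCTCF) to 0.63 (intraTAD2) and Htr5a with Insig1 from 0.019 (1xBorCTCF) to 0.41 (intraTAD2). The map with the most contacts, intraTAD2, gave the highest value for each pair. In none of the 5 mutant maps were Paxip1 and Insig1 each other's closest match. There Rbm33 or En2 came first for Paxip1, and En2, Cnpy1 or Rbm33 for Insig1. In 1xBorCTCF, for example, Paxip1 gave 0.75 with En2 and Insig1 gave 0.78 with Rbm33.

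Between genotypes, Paxip1 differed from wild type in its contact with the segment from Shh to the end of Lmbr1 (chr5:28450001-29385000). The contact was 0.849 for wild type, 0.920 for intraTAD2, 0.917 for intraTAD3, 0.950 for i4CTCF, 1.04 for 2xBorCTCF and 0.995 for 1xBorCTCF. Wild type was the lowest and 2xBorCTCF the highest. The log2 ratios to wild type were 0.12 (0.058 to 0.17) for intraTAD2, 0.11 (0.051 to 0.17) for intraTAD3, 0.16 (0.090 to 0.23) for i4CTCF, 0.29 (0.22 to 0.37) for 2xBorCTCF and 0.23 (0.17 to 0.29) for 1xBorCTCF. All 5 share the wild-type map. Against intraTAD2 the ratio was 0.18 (0.11 to 0.24) in 2xBorCTCF, 0.11 (0.061 to 0.16) in 1xBorCTCF, 0.045 (-0.017 to 0.11) in i4CTCF and -0.0047 (-0.055 to 0.045) in intraTAD3. Left of Paxip1, its contact was also above wild type in intraTAD2, 2xBorCTCF and 1xBorCTCF, by 0.10 (0.045 to 0.15), 0.075 (0.0081 to 0.14) and 0.076 (0.018 to 0.13), and without balancing the intraTAD2 and 1xBorCTCF ratios there were -0.018 and -0.053. In the other segments, no further ratio of Paxip1 or Insig1 to wild type left out 0, and Htr5a was lower from Paxip1 to Insig1 in 1xBorCTCF, with -0.088 (-0.15 to -0.027).

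The ratios for the Shh segment depended on the scale and the comparison map. When balanced values were divided by the map total, with no distance normalisation, the Paxip1 ratio to wild type was -0.046 for intraTAD2, -0.16 for intraTAD3, -0.10 for i4CTCF, 0.15 for 2xBorCTCF and 0.18 for 1xBorCTCF. That scale put the median of all 241 gene pairs at -0.086, -0.19, -0.29, -0.11 and -0.073, in that order, against -0.022, -0.041, -0.050, 0.0088 and -0.031 with distance normalisation. The average over all loci at the distances between Paxip1 and the segment, as a share of the map, had log2 ratios to wild type of -0.17, -0.24, -0.25, -0.16 and -0.047. Against intraTAD2 the ratios of 2xBorCTCF and 1xBorCTCF were 0.19 and 0.22 by map total, above 0 on both scales. Against the median of the other 5 maps, Paxip1 was at -0.045 in intraTAD2, -0.050 in intraTAD3 and 0.045 in i4CTCF, with intervals that held 0, and at 0.18 in 2xBorCTCF and 0.11 in 1xBorCTCF, with intervals above it. Without balancing, the intraTAD2 ratio to wild type was 0.044, with an interval that held 0. With both windows left out of the expected value, the i4CTCF ratio was 0.44 to wild type and 0.34 to intraTAD2, both with intervals above 0. The windows left out here are that of the gene and the whole segment of 935 kb. The expected value then rests on fewer pairs and on other loci, those outside both. Such intervals leave out the error of the expected value. As a share of all balanced contact of Paxip1 at 20 kb or more, the segment took 12.6% (12.3 to 12.9) for wild type, 11.8% for intraTAD2, 11.7% for intraTAD3, 13.1% for i4CTCF, 14% (13.6 to 14.5) for 2xBorCTCF and 14.2% (13.9 to 14.5) for 1xBorCTCF. The share was thus above wild type in both BorCTCF maps, with intervals that did not overlap, and below it in intraTAD2 and intraTAD3. These intervals are binomial ones of the whole contacts, moved to the balanced share, and leave out the balancing weights.

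Windows of the size of Paxip1 laid side by side across the flank left of Shh, up to the end of Rbm33, gave the local background. They were laid from the left end of the map and not kept clear of the gene. A window lying almost wholly on Paxip1 was thus among them. The windows used below for Insig1 and Htr5a overlap those genes in the same way. In 2xBorCTCF against wild type their median log2 ratio for the segment was 0.16 over 14 windows and 12 were above 0. In 1xBorCTCF the median was 0.12 and 14 were above 0. In these 2 maps and in i4CTCF, 0 windows exceeded Paxip1, though the highest window in 2xBorCTCF, at 0.29, came close to it, and in intraTAD2 and intraTAD3 1 window did in each. Against intraTAD2, 5 of 14 windows exceeded Paxip1 in 2xBorCTCF and 6 of 14 in 1xBorCTCF, so Paxip1 did not stand apart from its flank there. The border next to Shh was shallower in 2xBorCTCF (-0.84) and 1xBorCTCF (-0.94) than in the other 4 maps, where it was -1.03 for wild type, -1.09 for intraTAD2, -1.03 for intraTAD3 and -1.03 for i4CTCF. Its part in the Paxip1 values was not tested.

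Insig1 was also lowest in wild type in the Shh segment. Its contact was 0.704 for wild type, 0.751 for intraTAD2, 0.734 for intraTAD3, 0.780 for i4CTCF, 0.806 for 2xBorCTCF and 0.803 for 1xBorCTCF. The log2 ratios to wild type were 0.094 (0.00037 to 0.19) in intraTAD2, 0.15 (0.033 to 0.26) in i4CTCF, 0.20 (0.078 to 0.31) in 2xBorCTCF and 0.19 (0.093 to 0.29) in 1xBorCTCF, and in intraTAD3 the interval held 0. By map total they were 0.024, -0.047, 0.079 and 0.18, of which the last alone left out 0, and intraTAD3 was lower, at -0.12. Without balancing, intraTAD2 (0.025) and i4CTCF (0.070) had intervals that held 0. Of 47 windows of its size across the flank, 7, 10, 16 and 9 exceeded Insig1 in these maps. Against intraTAD2 the Insig1 ratio in 1xBorCTCF was 0.10 (0.014 to 0.18), and 21 of 47 windows exceeded it. In i4CTCF and 2xBorCTCF the intervals held 0, but with both windows left out of the expected value these ratios were 0.36 and 0.29. Their intervals were then above 0, without the error of the expected value. Without balancing, the 2xBorCTCF ratio was beyond counting error (0.19).

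The contact of Htr5a with the segment was 1.05 for wild type, 1.03 for intraTAD2, 1.05 for intraTAD3, 1.10 for i4CTCF, 1.18 for 2xBorCTCF and 1.10 for 1xBorCTCF. Against wild type the interval left out 0 in 2xBorCTCF, with 0.17 (0.072 to 0.26), and held 0 in the other 4 mutant maps. By map total the 2xBorCTCF ratio was -0.0061, and intraTAD2, intraTAD3 and i4CTCF were lower beyond counting error, at -0.17, -0.26 and -0.19. With both windows left out of the expected value, i4CTCF (0.39) and 1xBorCTCF (0.14) were also higher. Their intervals were above 0, without the error of the expected value. The direction for Htr5a thus depended on the scale. Of 31 windows of its size across the flank, 14 exceeded Htr5a there. Against intraTAD2, Htr5a was higher by 0.10 (0.019 to 0.18) in i4CTCF, 0.20 (0.11 to 0.28) in 2xBorCTCF and 0.10 (0.028 to 0.16) in 1xBorCTCF. By map total these were -0.027, 0.16 and 0.16, and without balancing 0.036, 0.14 and -0.0077. The i4CTCF interval held 0 on both of these scales, and that of 1xBorCTCF held 0 without balancing. Of 31 windows, 12, 9 and 15 exceeded Htr5a.

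Within the segment Paxip1 differed unevenly. It met Shh itself at 0.797 for wild type, 0.726 for intraTAD2, 0.831 for intraTAD3, 0.936 for i4CTCF, 1.21 for 2xBorCTCF and 1.06 for 1xBorCTCF. Both BorCTCF maps were above 1 and the other 4 below it, with intervals in 1xBorCTCF and i4CTCF that held 1. The log2 ratios of 2xBorCTCF and 1xBorCTCF were 0.60 (0.30 to 0.90) and 0.42 (0.17 to 0.67) to wild type, and 0.74 (0.47 to 1.01) and 0.55 (0.33 to 0.77) to intraTAD2. Windows of the flank were not compared for Shh alone, so whether these ratios are particular to Paxip1 is not known. Insig1 met Shh at 0.705 for wild type and 0.949 for 2xBorCTCF, a log2 ratio of 0.43 (0.012 to 0.84). Htr5a met Shh at 0.842 and 0.850.

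The gene desert between Shh and Rnf32 was cut into 4 stretches of 175 to 185 kb. In the one next to Shh, the contact of Paxip1 was 0.802 for wild type, 0.677 for intraTAD2, 0.642 for intraTAD3, 0.748 for i4CTCF, 0.857 for 2xBorCTCF and 0.8004 for 1xBorCTCF. It was lower than wild type in intraTAD2, by a log2 ratio of -0.24 (-0.41 to -0.081), and in intraTAD3, by -0.32 (-0.49 to -0.15). In each of the other 3 stretches Paxip1 was above wild type in all 5 mutant maps beyond counting error. The stretches were not recomputed on another scale. By map total the ratio for the whole segment was -0.046 in intraTAD2, -0.16 in intraTAD3 and -0.10 in i4CTCF. In the stretch next to Rnf32 it was 0.734 for wild type, 0.859 for intraTAD2, 0.861 for intraTAD3, 0.934 for i4CTCF, 0.995 for 2xBorCTCF and 0.890 for 1xBorCTCF. Htr5a was also lower than wild type next to Shh in intraTAD3, with 0.854 against 1.06, a log2 ratio of -0.32 (-0.52 to -0.11). In the second stretch from Shh it was lower in intraTAD3, by -0.16 (-0.29 to -0.024), and higher in 2xBorCTCF, by 0.18 (0.026 to 0.34), and 1xBorCTCF, by 0.18 (0.047 to 0.32). Insig1 had its lowest wild-type value of the 4 stretches next to Shh, 0.446, and was higher there in i4CTCF (0.593) and 1xBorCTCF (0.569) beyond counting error. Next to Rnf32, Insig1 was higher than wild type (0.685) in intraTAD2 (0.837), intraTAD3 (0.858) and 2xBorCTCF (0.877), and in the second stretch from Shh it was higher in 1xBorCTCF (0.679 against 0.547).

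**Figure D4:**
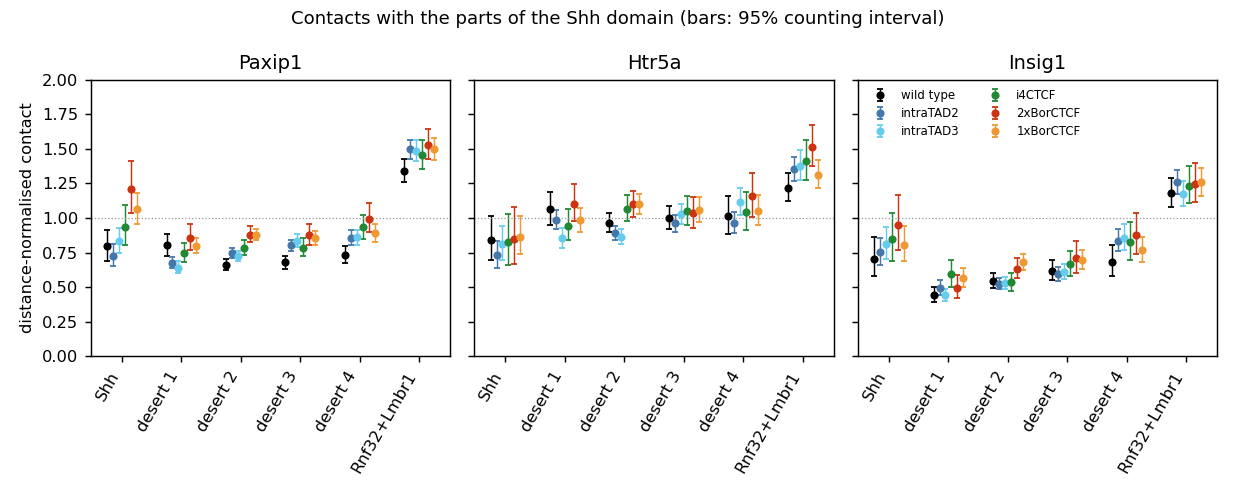
Distance-normalised contact (y axis) of Paxip1, Htr5a and Insig1 with the parts of the Shh domain, from Shh through 4 desert stretches to Rnf32 and Lmbr1, in the 6 maps. Points are maps and bars 95% counting intervals. Paxip1 with Shh is highest in 2xBorCTCF (1.21) and 1xBorCTCF (1.06). On this scale, the only one used for the desert stretches, the 3 farther from Shh are lowest in wild type for Paxip1.

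At the far end of the segment all 3 genes met Lmbr1 above average in every map. Paxip1 met it at 1.36 for wild type, 1.55 for intraTAD2, 1.51 for intraTAD3, 1.504 for i4CTCF, 1.501 for 2xBorCTCF and 1.55 for 1xBorCTCF. Wild type was the lowest, and the ratios to it left out 0 in intraTAD2 with 0.18 (0.056 to 0.31), intraTAD3 with 0.15 (0.018 to 0.28) and 1xBorCTCF with 0.18 (0.053 to 0.32). By map total the intraTAD3 ratio was -0.14. Htr5a met Lmbr1 at 1.26 for wild type, 1.42 for intraTAD2, 1.45 for intraTAD3, 1.51 for i4CTCF, 1.604 for 2xBorCTCF and 1.39 for 1xBorCTCF, again lowest in wild type. Its ratios were 0.18, 0.20 and 0.27 in intraTAD2, intraTAD3 and i4CTCF, against -0.036, -0.13 and -0.046 by map total, and 0.35 (0.14 to 0.56) in 2xBorCTCF. Insig1 met Lmbr1 at 1.14 for wild type and 1.15 to 1.23 for the mutants, with no ratio beyond counting error. In intraTAD3 the Lmbr1 bins at 29305001 and 29310001 held 0 and 174 contacts. They were dropped from every map, so each Lmbr1 value describes the rest of the gene. Rnf32 met Paxip1 at 1.64 in 2xBorCTCF against 1.22 in wild type, a log2 ratio of 0.44 (0.22 to 0.65).

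Over the 21 partner genes of Paxip1 and the 22 each of Htr5a and Insig1, few contacts differed from wild type beyond counting error. In intraTAD2 the calls were 1 higher and 1 lower for Paxip1, 2 higher and 0 lower for Htr5a and 1 higher and 1 lower for Insig1, where 17.4% of all 241 gene pairs differed, 6.64% higher and 10.8% lower. In intraTAD3 they were 2 higher and 1 lower for Paxip1, 3 higher and 0 lower for Htr5a and 0 higher and 0 lower for Insig1, against 20.3%, 6.64% and 13.7%. In i4CTCF they were 0 higher and 1 lower for Paxip1, 1 higher and 0 lower for Htr5a and 0 higher and 0 lower for Insig1, against 16.2%, 4.15% and 12%. In 2xBorCTCF they were 3 higher and 1 lower for Paxip1, 1 higher and 0 lower for Htr5a and 1 higher and 1 lower for Insig1, against 21.2%, 8.71% and 12.4%. In 1xBorCTCF they were 3 higher and 0 lower for Paxip1, 1 higher and 1 lower for Htr5a and 2 higher and 2 lower for Insig1, against 16.6%, 6.64% and 9.96%. With both directions counted, the share called was below the background in every case but Insig1 in 1xBorCTCF, with 4 of 22. The share of lower calls was below its background throughout. The share of higher calls was above its background for Paxip1 in intraTAD3, 2xBorCTCF and 1xBorCTCF, for Htr5a in intraTAD2, intraTAD3 and i4CTCF, and for Insig1 in 1xBorCTCF, on 1 to 3 genes each. Summed over the 5 comparisons, Paxip1 had 9 higher and 4 lower ratios, Htr5a 8 and 1, and Insig1 4 and 4. By map total the splits were 6 and 33, 6 and 15, and 3 and 26. Without balancing they were 6 and 21, 7 and 11, and 4 and 12.

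By the listed groups, the higher calls of Paxip1 lay mostly in the Shh segment, with 6 of 15 ratios to Shh, Rnf32 and Lmbr1 higher and 0 lower. No background was taken for single groups. Over all gene pairs 4.15% to 8.71% were higher and 9.96% to 13.7% lower, depending on the map. On the En2 side (Cnpy1, En2, Rbm33) 1 was higher and 3 lower, the 3 being Rbm33 in intraTAD2 (-0.15), intraTAD3 (-0.10) and 2xBorCTCF (-0.12). Rbm33 was the gene that Paxip1 met most in wild type, which also favours lower mutant values. On the Mnx1 side (Nom1, Mnx1, Ube3c, Dnajb6) 0 were higher and 1 of 20 lower, Dnajb6 in i4CTCF with 1.15 against 1.55, a log2 ratio of -0.42 (-0.73 to -0.12). For Htr5a 4 of 15 were higher in the Shh segment, all Lmbr1, 2 of 15 on the En2 side and 1 of 20 on the Mnx1 side, and none in these groups was lower. By map total the Lmbr1 ratio reversed for Htr5a in intraTAD2, intraTAD3 and i4CTCF, and for Paxip1 in intraTAD3. For Insig1 2 of 15 were higher in the Shh segment, Shh in 2xBorCTCF and Rnf32 in 1xBorCTCF, 0 of 15 differed on the En2 side, and 3 of 20 were lower on the Mnx1 side, Mnx1 in 2 maps and Ube3c in 2xBorCTCF (0.923 against 1.196).

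Against intraTAD2 the calls in i4CTCF were 2 higher and 2 lower for Paxip1, 2 higher and 2 lower for Htr5a and 0 higher and 0 lower for Insig1, where 21.9% of 242 gene pairs differed, 7.02% higher and 14.9% lower. In 2xBorCTCF they were 2 higher and 0 lower for Paxip1, 0 higher and 2 lower for Htr5a and 0 higher and 1 lower for Insig1, against 21.5%, 10.3% and 11.2%. In 1xBorCTCF they were 3 higher and 0 lower for Paxip1, 1 higher and 2 lower for Htr5a and 0 higher and 1 lower for Insig1, against 17.4%, 10.3% and 7.02%. In intraTAD3 they were 1 higher and 2 lower for Paxip1, 0 higher and 0 lower for Htr5a and 0 higher and 1 lower for Insig1, against 9.5%, 2.07% and 7.44%. These comparisons share the intraTAD2 map. Shh was higher with Paxip1 in i4CTCF, 2xBorCTCF and 1xBorCTCF, by 0.37, 0.74 and 0.55, and Cnpy1 was lower with Htr5a in the same maps, with -0.16, -0.22 and -0.17. In 2xBorCTCF against 1xBorCTCF the calls were 1 higher and 0 lower for Paxip1, 2 higher and 2 lower for Htr5a and 1 higher and 1 lower for Insig1, where 12.4% of gene pairs differed, 5.37% higher and 7.02% lower. Rnf32 was higher with Paxip1, by 0.37 (0.16 to 0.58), and with Htr5a, by 0.39 (0.070 to 0.72). Htr5a was also higher with Lmbr1 (0.21) and lower with Nom1 (-0.59) and Adgrf3 (-1.48), and Insig1 was higher with Il6 (1.36) and lower with Ube3c (-0.41). The Adgrf3 and Il6 ratios rest on few contacts. Htr5a with Adgrf3 in 2xBorCTCF was the thinnest pair of all. Insig1 with Il6 held 16 contacts in wild type, a map that is not part of this ratio.

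In 50 kb blocks, a call needed a 1.5-fold difference from wild type beyond counting error. Paxip1 had 0, 0, 1, 1 and 1 of 53 such blocks in intraTAD2, intraTAD3, i4CTCF, 2xBorCTCF and 1xBorCTCF. Over all windows of its size the background was 0.358%, 0.313%, 0.939%, 2.06% and 0.537%. Htr5a had 0, 0, 2, 2 and 1 of 54, with a background of 1.68%, 1.52%, 2.66%, 4.22% and 2.08%. Insig1 had 0, 0, 1, 3 and 2 of 54, with a background of 2.3%, 2.68%, 3.49%, 5.08% and 3.53%.

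The single block called for Paxip1 was the same in i4CTCF, 2xBorCTCF and 1xBorCTCF, chr5:29030001-29080000 in the desert, which holds no gene. Its contact with Paxip1 was 0.522 for wild type, 0.744 for intraTAD2, 0.701 for intraTAD3, 0.884 for i4CTCF, 1.08 for 2xBorCTCF and 0.835 for 1xBorCTCF. Wild type was the lowest, and all 3 calls share its 128 contacts.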

How the data were processed

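Contacts were measured by capture Hi-C in limb buds of 5 mutant genotypes, and the authors' wild-type map is 1 column of values that belongs to no sample. The deposited values are a contact signal for pairs of 5 kb bins. Per the file names, the authors required a mapping quality of 30 and balanced each map by the Knight-Ruiz (KR) method, which gives every bin the same total, so that a gain in one place is offset elsewhere. The submitters' processing notes name Bowtie2 2.2.6, mm9 and mm10 without their roles. The build was checked in the wild-type map alone by shifting gene positions from -200 to 400 kb in 61 steps. The mean log2 contact of gene pairs was highest at 0 kb, 0.13 over 88 pairs, and at most -0.00026 beyond 100 kb. Shifts to the right left fewer pairs, 33 from 250 kb on, so they do not compare the same pairs.

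Whole contacts were recovered from the balanced values (100% whole within 0.01) and give 95% intervals of counting error. The map holds 558 bins from 27480001 to 30270000, of which 10 were dropped because they met fewer than 25% as many bins as the median bin did in at least 1 map. Undefined pairs, 0 to 106 a map, were dropped too. Scripts used Python 3.11.15, numpy 2.4.6, pandas 2.3.3, scipy 1.17.1 and matplotlib 3.10.9 and were tested on simulated data. Gene positions are RefSeq's. Named were the 3 genes, the listed groups, the 2 highest and 2 lowest other genes with 10 or more wild-type contacts at 100 kb or more, the 3 strongest 25 kb windows and the 3 most alike profiles. Further values, such as called blocks, other called genes and stretches of the desert, were chosen after their values were seen. Members and lists were chosen with earlier results of these data known. Alternatives covered the gene window, distance normalisation, balancing, scale, comparison map, bin filter, block size, fold and likeness measure. They did not cover the split into gene bins and other bins, which was also not a planned result.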

Additional observations from a re-analysis of the deposited data

How the results depend on the processing

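No paired analysis was possible because each genotype had 1 library, and for the same reason no replicate could be left out. For segments, the map-total scale, the median map as comparison and an expected value without the bins of the gene were chosen after the data were seen. Values are log2 ratios to wild type unless stated, S is the segment from Shh to the end of Lmbr1, and where a value reversed or moved the cause was not tested. Segment ratios with partners at 50 kb or more all held. The correlations of Paxip1 with Htr5a, Paxip1 with Insig1 and Htr5a with Insig1 held with 25 kb blocks (0.34, 0.70 and 0.17) and as Pearson's r of log2 values (0.40, 0.77 and 0.14).

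With gene bins alone Paxip1 to Insig1 was 0.24 for intraTAD2, 0.27 for intraTAD3, 0.44 for i4CTCF, 0.25 for 2xBorCTCF and 0.31 for 1xBorCTCF. Gene ratios called were then 5 higher and 0 lower for Htr5a and 10 higher for Insig1.

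By map total, S reversed for Paxip1 in intraTAD2 (-0.046), intraTAD3 (-0.16) and i4CTCF (-0.10), for Insig1 in i4CTCF (-0.047) and for Htr5a in 2xBorCTCF (-0.0061) and in i4CTCF over intraTAD2 (-0.027). Paxip1 moved to 0.15 in 2xBorCTCF, and over intraTAD2 to 0.22 in 1xBorCTCF and -0.053 in i4CTCF. Htr5a moved to -0.17, -0.26 and -0.19 in intraTAD2, intraTAD3 and i4CTCF, and Insig1 to -0.12 in intraTAD3 and, over intraTAD2, -0.071 in i4CTCF. Lmbr1 reversed with Paxip1 in intraTAD3 (-0.14) and with Htr5a in intraTAD2 (-0.036), intraTAD3 (-0.13) and i4CTCF (-0.046). In i4CTCF, Paxip1 to Htr5a was -0.062 and Paxip1 to Insig1 -0.082. Lower calls numbered 33, 15 and 26 for Paxip1, Htr5a and Insig1.

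Against the median of the other 5 maps, S reversed for Paxip1 in intraTAD2 (-0.045) and intraTAD3 (-0.050) and for Insig1 in intraTAD2 (-0.055), and Htr5a to Lmbr1 in intraTAD2 (-0.021). S moved to 0.045, 0.18 and 0.11 for Paxip1 in i4CTCF, 2xBorCTCF and 1xBorCTCF and to -0.087 for Insig1 in intraTAD3. Higher calls were 4, 4 and 0.

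Without balancing, the stretch left of Paxip1 reversed in intraTAD2 (-0.018) and 1xBorCTCF (-0.053) and S for Htr5a in 1xBorCTCF over intraTAD2 (-0.0077). S moved to 0.044 for Paxip1 in intraTAD2, to -0.020 for Htr5a in 1xBorCTCF and to 0.26 for Paxip1 in 2xBorCTCF over intraTAD2. Paxip1 to Htr5a was -0.15 in intraTAD3 and -0.086 in 1xBorCTCF, with an interval below 0 in intraTAD3, and Paxip1 to Insig1 -0.065 in intraTAD2. Lower calls were 21, 11 and 12, and 5 blocks were called for Paxip1.

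Both windows, that of the gene and all of S, were left out of the expected value, which then rests on fewer pairs and other loci. S was then 0.44 and 0.46 for Paxip1, 0.39 and 0.34 for Htr5a and 0.44 and 0.37 for Insig1 in i4CTCF and 2xBorCTCF. Over intraTAD2 it was 0.34, 0.35 and 0.17 for Paxip1 in i4CTCF, 2xBorCTCF and 1xBorCTCF, 0.40 and 0.35 for Htr5a and 0.36 and 0.29 for Insig1 in i4CTCF and 2xBorCTCF. With the windows of both genes of a pair left out, lower calls of Htr5a were 3, and 4 with bins under 50% of the median left out instead.

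Changed blocks of Paxip1, Htr5a and Insig1, 3, 5 and 6 over the 5 comparisons, were 45, 23 and 14 at 1.2-fold, 1, 1 and 0 at 2-fold, and 20, 18 and 32 in 25 kb blocks. Depth limits the farthest pairs, the thinnest being Htr5a with Adgrf3 in 2xBorCTCF on 6 contacts.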

Other observations

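Some strong wild-type windows were weaker in the mutant maps. Htr5a met the desert window chr5:28540001-28565000 at 1.62 (1.14 to 2.30) in wild type on 118 contacts, and at 1.000 for intraTAD2, 0.926 for intraTAD3, 1.06 for i4CTCF, 0.932 for 2xBorCTCF and 0.863 for 1xBorCTCF. The wild-type value was the highest of the 6, as picking the window in that map would also give. Insig1 met the Tyms window chr5:30035001-30060000 at 2.81 in wild type on 13 contacts, and at 0.955 for intraTAD2, 1.75 for intraTAD3, 1.12 for i4CTCF, 1.59 for 2xBorCTCF and 1.10 for 1xBorCTCF, on 7 to 18 contacts each. The ratio to wild type left out 0 in intraTAD2 and held 0 in the other 4.

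The profile of Insig1 ran against that of Lmbr1 in all 6 maps, with a Spearman correlation over 50 kb blocks from -0.38 (wild type) to -0.28 (i4CTCF). For Paxip1 and Lmbr1 it ranged from -0.26 (intraTAD2) to -0.20 (wild type), and for Htr5a and Lmbr1 from 0.14 (intraTAD3) to 0.35 (2xBorCTCF). Rnf32, whose window overlaps that of Lmbr1, gave lower values than Lmbr1 with Insig1 and Paxip1 in every map. They ranged from -0.49 (intraTAD3) to -0.35 (2xBorCTCF) with Insig1 and from -0.35 (intraTAD3) to -0.26 (1xBorCTCF) with Paxip1. All these values are descriptions within single maps.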
